A study of Homo sapiens with 10 samples.

Results

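Natural antisense RNAs of the prostate cancer cell line PC3 were described beside the genes they lie against. In the deposited table, 1108 rows carried a symbol that ends in -AS1, and 984 of them were above 0 in at least 1 library. The 152 antisense RNAs described here, 13.7% of these rows, were chosen by a mean of 1 RPKM or more, the number of reads divided by gene length and a factor for each library, over all 10 libraries. The table held 62656 genes. For 150 of the 152, the gene named before the suffix was also listed, and it is called the sense partner. The exceptions were PGM5P3-AS1 and RPARP-AS1. In 143 pairs, both genes were tested, since 7 partners had a mean under 0.5 RPKM.

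PC3 is an established epithelial line from a prostate cancer metastasis. The cells were grown in RPMI-1640 with serum and received either 1 µM of GW3965, a synthetic agonist of the Liver X Receptors (LXRs), or its vehicle DMSO for 24 h, with 5 libraries for each condition. All 10 libraries come from this single line, and the labels do not say whether replicates were separate cultures, so p-values measure the spread between these libraries only. Total RNA was depleted of ribosomal RNA and made into stranded libraries, although the sample records name polyA RNA. GRCh38 was the genome build in the submitters' notes.

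Antisense RNAs are transcribed from the strand opposite to another gene. Some start at the promoter of that gene and run the other way, others start inside its body or beyond its end. They are often spliced and polyadenylated, and many are kept low by nuclear RNA decay. A few act on the gene they overlap, by chromatin or by pairing with its RNA, while others, such as OIP5-AS1, act far from their own locus. For most of them no function is known.

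The reads behind the RPKM values could be recovered, since the values of a gene step by the worth of a single read. The DMSO libraries held 30609554 to 39383335 reads and the GW3965 libraries 30428625 to 41635664. LXR target genes carried the response to the ligand: 6 of 6, among them the cholesterol exporter ABCA1, rose with log2 differences from 0.74 to 2.29. The epithelial keratins KRT8 and KRT18 lay at 36.6 and 49.6 RPKM and vimentin (VIM) at 69.5 RPKM, and KLK3, which codes for prostate-specific antigen, was 0 in every library. The 3 markers of leukocytes stayed at or below 0.0244 RPKM in all libraries. Of the fibroblast and endothelial markers, PDGFRB and CDH5 stayed at or below 0.0606, COL3A1 ran from 1.85 to 4.77 and PECAM1 from 0.409 to 0.76. The libraries DMSO 1, GW3965 1 and GW3965 2 stood apart from the other 7 on the first principal component of genes with at least 10 RPKM, which held 42.7% of the variance (scores of -9.21, -11.9 and -9.86 against -1.29 to 9.69).

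Whether a read was assigned by strand decides what an antisense value means, and the setting is not given in the sources used here. Reads were therefore set beside the overlap of exons with exons of the opposite strand. Of the -AS1 genes whose exons in GENCODE 29 lie wholly under exons of the opposite strand, 16 of 16 had 0 reads in all 10 libraries, against 11.2% of 409 -AS1 genes with no exon base so covered. Over all gene types with the same length in the table and in GENCODE 29 and no overlap on their own strand, 676 of 691 wholly covered genes (97.8%) had 0 reads, against 25.5% of 2220 uncovered genes. The counting that led to these zeros was not tested. The kit marks strand, but whether the counting used it is not known, so reads from an antisense RNA and from unspliced RNA of its partner may not have been told apart where exons of one lie in introns of the other. The 152 antisense RNAs had at most 66.7% of their exon bases under opposite exons (median 5.55%), and 101 had some.

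The sequences that follow belong to the pairs on which the results turn. They were copied from RefSeq promoter windows (250 bases before to 50 bases after a start, build GRCh38.p14) or from GENCODE 29 transcripts, and 94 of the 152 antisense RNAs had such a window. In 21 pairs the windows of the antisense RNA and its partner overlapped on opposite strands. SSTR5-AS1 and its partner are the pair with the highest correlation, and WNT5A-AS1 and its partner both had higher means with GW3965. For these windows, which lie at chr16:1078682-1078981 on the minus strand and chr3:55487368-55487667 on the plus strand, capitals mark the bases that also belong to the partner's window (194 and 189 of 300). The overlapping window of WNT5A belongs to a start inside that gene. GENCODE 29 places the start of WNT5A at chr3:55490539, 2840 bases from that of WNT5A-AS1. TMEM161B-AS1 had no window, so that of its partner is shown (chr5:88268796-88269095, minus strand), with capitals for the 201 bases that GENCODE 29 places in the first exon of the antisense RNA on the other strand.
SSTR5-AS1: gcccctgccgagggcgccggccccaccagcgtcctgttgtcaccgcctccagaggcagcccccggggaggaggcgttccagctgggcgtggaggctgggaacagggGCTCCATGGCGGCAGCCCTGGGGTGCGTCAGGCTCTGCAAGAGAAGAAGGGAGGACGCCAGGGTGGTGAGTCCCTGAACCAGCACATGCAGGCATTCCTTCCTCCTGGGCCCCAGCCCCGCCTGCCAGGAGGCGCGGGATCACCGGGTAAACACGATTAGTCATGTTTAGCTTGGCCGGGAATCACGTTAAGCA
WNT5A-AS1: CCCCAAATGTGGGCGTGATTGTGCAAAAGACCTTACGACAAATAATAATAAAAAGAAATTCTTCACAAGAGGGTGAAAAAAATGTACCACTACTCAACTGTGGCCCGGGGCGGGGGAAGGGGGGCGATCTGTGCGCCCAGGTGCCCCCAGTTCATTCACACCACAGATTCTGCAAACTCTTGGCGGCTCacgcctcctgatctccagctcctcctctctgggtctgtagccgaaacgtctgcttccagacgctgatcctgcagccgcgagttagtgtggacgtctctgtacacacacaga
TMEM161B: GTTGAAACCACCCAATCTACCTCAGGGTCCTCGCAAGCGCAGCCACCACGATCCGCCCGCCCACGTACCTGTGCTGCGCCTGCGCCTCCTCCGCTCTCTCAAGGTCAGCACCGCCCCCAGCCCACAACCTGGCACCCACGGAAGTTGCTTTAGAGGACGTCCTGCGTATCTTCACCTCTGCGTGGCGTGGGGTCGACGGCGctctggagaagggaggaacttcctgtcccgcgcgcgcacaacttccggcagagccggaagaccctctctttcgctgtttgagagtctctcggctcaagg

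CELSR3-AS1 is shown as the whole RNA of 196 bases, because it had the lowest log2 difference between conditions and a length that gives few reads. It lies at chr3:48663776-48669174 on the plus strand, with no exon base under an exon of the other strand, and starts 861 bases from the start of CELSR3. OIP5-AS1, known as Cyrano in other species, carries a site for the microRNA miR-7, which is shown with the mature miRNA. Capitals mark the seed of the miRNA (bases 2 to 8) and the matching bases of the site. The site was found in 1 of 10 transcripts of OIP5-AS1 in GENCODE 29, among 3 stretches with a seed match, and before the seed match it held a run of 14 bases complementary to the other end of the miRNA.
CELSR3-AS1: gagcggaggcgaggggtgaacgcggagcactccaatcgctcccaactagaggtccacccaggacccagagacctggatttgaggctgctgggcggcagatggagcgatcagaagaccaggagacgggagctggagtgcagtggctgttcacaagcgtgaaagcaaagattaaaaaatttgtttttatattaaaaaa
hsa-miR-7-5p: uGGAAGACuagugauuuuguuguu
OIP5-AS1 site: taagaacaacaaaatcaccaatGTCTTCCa

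Promoter windows were searched on both strands for short motifs. The GC box GGGCGG was in 63 of 112 windows of the antisense RNAs (56.2%) and in 45.0% of all 35116 windows. CCAAT was in 30.4% against 34.6%, and TATAAA in 5.36% against 11.5%. The nuclear receptor motif AGGTCA was in 13.4% against 13.8%, and a direct repeat of it with a gap of 4 bases, the element bound by LXRs, was in 0 of 112 windows and in 0.0199% of all windows. Of the windows shown, that of WNT5A-AS1 held the GC box, that of TMEM161B held the GC box, the CCAAT box and the nuclear receptor motif, and that of SSTR5-AS1 held none of the motifs searched.

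Most antisense RNAs were low, and a few reached the level of common messenger RNAs. The median level was 1.68 RPKM, 86 lay between 1 and 2 RPKM, 18 at 5 or above and 7 at 10 or above. A level of 1 RPKM was reached in every library by 108 of the 152, in the mean of DMSO but not of GW3965 by 6, and the reverse by 5. Just inside the limit lay BOLA3-AS1 (1.005 RPKM) and ARRDC3-AS1 (1.004), and just outside SRP14-AS1 (0.999) and ZNF710-AS1 (0.997). These levels chose the antisense RNAs and are given as a description.

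FGD5-AS1 was the highest, with a mean of 24.4 RPKM. Its values were 24.6, 23.9, 24.0, 28.0 and 24.2 in DMSO 1 to 5 and 22.5, 22.5, 24.3, 25.8 and 24.1 in GW3965 1 to 5, so that the groups overlapped. FGD5, which codes for an exchange factor of endothelial cells, lay at 0.0253 RPKM, with 3 to 14 reads per library. OVCH1-AS1 followed a like pattern, at 15.8 RPKM beside 0.0668 RPKM of OVCH1. OIP5-AS1, a widely expressed cytoplasmic RNA, stood at 11.2 RPKM, while OIP5, a gene of centromere assembly, stood at 0.546.

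Other abundant antisense RNAs had expressed partners. LOXL1-AS1 lay at 16.4 RPKM beside LOXL1, an enzyme that cross-links elastin, at 21. SSTR5-AS1 (13.5 RPKM) was above SSTR5, a somatostatin receptor, in each of the 10 libraries. PSMA3-AS1 (11.5) was below PSMA3, a proteasome subunit. LRRC75A-AS1 (11.2), a host of small nucleolar RNAs, was above LRRC75A (1.92).

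**Figure D1:**
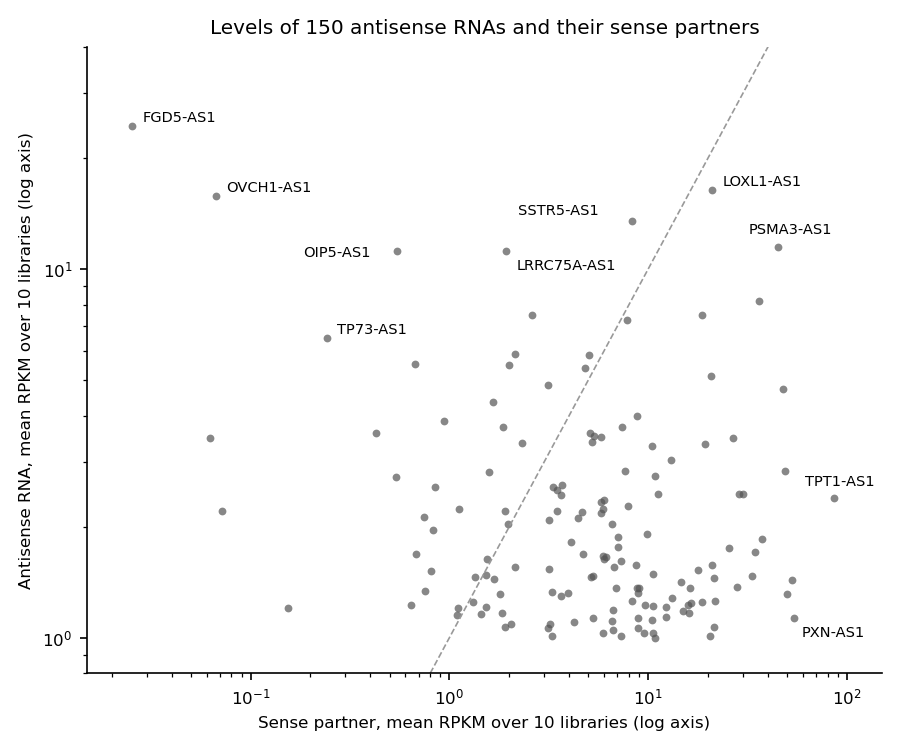
Each point is 1 of 150 antisense RNAs, with the mean RPKM of its sense partner on the horizontal axis and its own mean RPKM on the vertical axis, both over 10 libraries and on log axes. The dashed line marks equal levels, and 113 points lie to its right, where the partner is higher, while FGD5-AS1, OVCH1-AS1 and OIP5-AS1 lie far to its left.

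Over the 150 pairs, the antisense RNA was below its partner in 113 and above it in 37, as the plot of levels shows. The median partner was 2.94-fold higher per length. The levels of both were within 2-fold in 39 pairs, the antisense RNA was over 10-fold below in 31, and over 10-fold above in 6. These 6 were FGD5-AS1, OVCH1-AS1, DLGAP1-AS1, EPB41L4A-AS1, TP73-AS1 (6.51 against 0.241 RPKM of the p53 family gene TP73) and OIP5-AS1. At the other end, PXN-AS1 lay 47.5-fold below the focal adhesion gene PXN, and TPT1-AS1 35.9-fold below TPT1. The correlation of levels across pairs was -0.18, which is a description across genes within the same 10 libraries.

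By position in GENCODE 29, 65 antisense RNAs start within 1000 bases of their partner's start, 84 overlap the partner with starts farther apart, and FOXD2-AS1 lies beside FOXD2 without overlap. The first class had a median of 1.57 RPKM and the second of 1.73. The antisense RNA was above its partner in 12 of 65 and in 24 of 84 pairs. The annotation calls 106 of the genes antisense, 25 lincRNA and 18 processed transcript. The gene lengths behind the RPKM values ran from 195 to 35212 bases, and 89 were longer than in GENCODE 29, so levels of these genes rest on an annotation that was not used here.

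The first comparison asks which antisense RNAs differed after 24 h with the LXR agonist. None of the 152 passed the adjusted threshold of 0.05 in limma fitted on all 20402 tested genes, and the lowest adjusted p was 0.364. The background was 0.157%, or 32 of 20402 genes. At an unadjusted p under 0.05 there were 12 (7.89%), against 6.99% of all tested genes. Of these, 5 were higher with GW3965 (all genes 4.64%) and 7 lower (2.36%). The groups of libraries did not overlap for 1 antisense RNA (0.658%), against 1.84% of all tested genes. The median log2 difference was -0.018, beside 0.0034 over all tested genes. In bulk RNA, fewer cells with an RNA and less of it per cell cannot be told apart. With limma's voom on the recovered reads, and in the other fits tried, the count past the adjusted threshold was also 0.

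CELSR3-AS1, antisense to a gene of the planar cell polarity cadherins, had the lowest difference. It had 1.77, 1.93, 1.52, 1.47 and 3.31 RPKM in DMSO 1 to 5 and 1.35, 1.15, 1.21, 0.576 and 0.472 in GW3965 1 to 5. Every GW3965 library was below every DMSO library, and DMSO 5 was the highest. The means were 2.0 ± 0.754 and 0.952 ± 0.399 RPKM (SD, n = 5), a log2 difference of -1.03 (SE 0.30, limma unadjusted p = 0.00541, adjusted p = 0.364). These values rest on 3 to 21 reads per library, 69 in all DMSO libraries and 34 in all GW3965 libraries.

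CELSR3 itself had 1.54 ± 0.122 RPKM in DMSO and 1.51 ± 0.135 in GW3965 (SD, n = 5). The ratio of CELSR3-AS1 to CELSR3 was lower with GW3965 by a log2 difference of -1.01 (exact two-sided permutation test, p = 0.00794, the smallest it can give). The pair had been picked for its difference and belongs to 6 pairs tested in this way, of which the other 5 had exact p-values from 0.119 to 0.294.

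WNT5A-AS1 lies in WNT5A, the gene of a secreted ligand of non-canonical WNT signalling. Its values were 5.97, 4.86, 4.76, 6.15 and 4.38 RPKM with DMSO and 6.47, 6.05, 6.29, 6.61 and 7.04 with GW3965. GW3965 2 was below DMSO 4, and the other 4 GW3965 libraries were above all DMSO libraries. The log2 difference was 0.32 (SE 0.10, limma unadjusted p = 0.00687, adjusted p = 0.396). All 500 exon bases of WNT5A-AS1 lie in an intron of WNT5A in GENCODE 29.

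WNT5A had 4.94, 4.65, 4.71, 4.92 and 4.91 RPKM in the DMSO libraries and 5.39, 5.27, 4.99, 5.43 and 5.05 in the GW3965 libraries. The groups did not overlap, and the log2 difference was 0.11 (SE 0.05, limma adjusted p = 0.711). The part of unspliced WNT5A RNA in the antisense value was not tested.

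SMARCA5-AS1 lies against SMARCA5, an ATPase of chromatin remodelling, with 66.7% of its exon bases under opposite exons. It had 2.76, 2.72, 2.87, 2.78 and 3.59 RPKM with DMSO and 3.27, 3.26, 4.28, 3.92 and 3.79 with GW3965. DMSO 5 lay within the range of the GW3965 libraries. Its log2 difference was 0.32 (SE 0.10, limma adjusted p = 0.425), while SMARCA5 differed by 0.10.

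LOXL1-AS1 had 13.8, 19.8, 21.2, 19.7 and 16.9 RPKM with DMSO and 11.5, 11.9, 15, 15.6 and 18.5 with GW3965. The lowest value in each group came from a library that stood apart (DMSO 1 and GW3965 1), and its correlation with the first component was 0.76. Its log2 difference was -0.34 (SE 0.15, limma adjusted p = 0.705), and that of LOXL1 was 0.14.

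**Figure D2:**
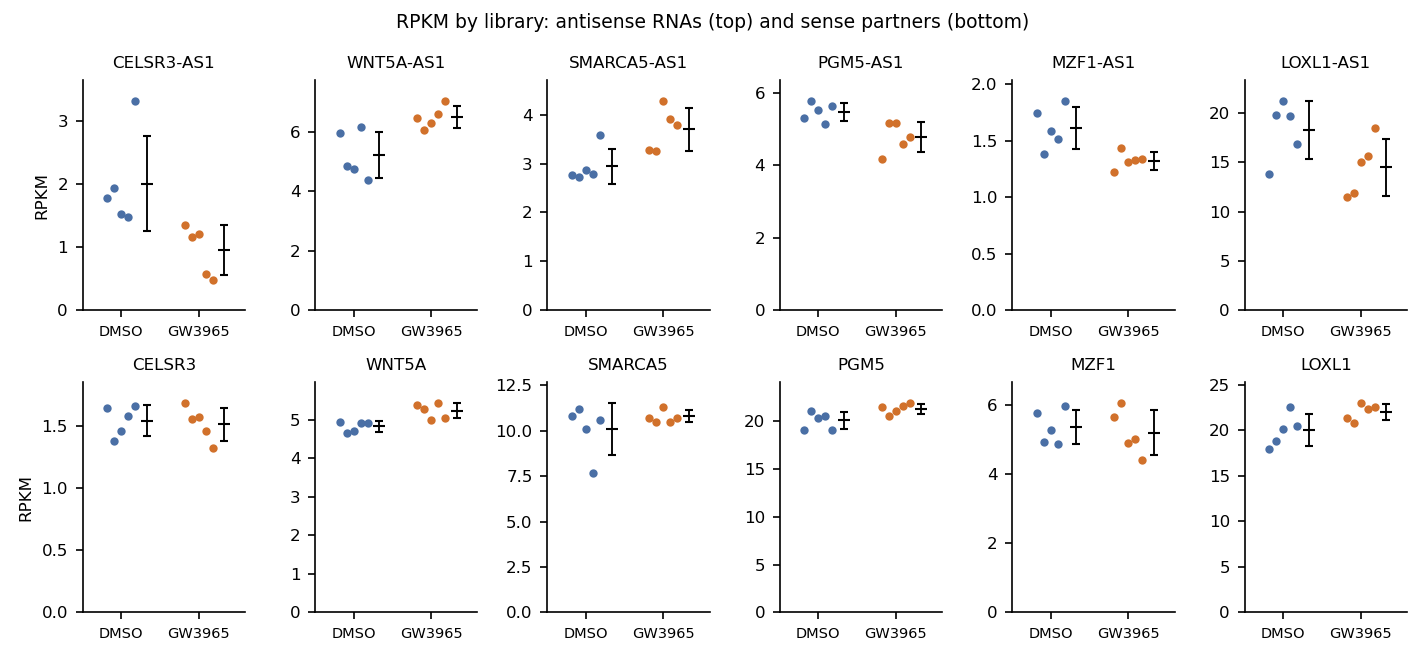
RPKM (vertical axes, from 0) of 6 antisense RNAs (top row) and their partners (bottom row) in 5 DMSO and 5 GW3965 libraries, with the mean and SD beside the points. The points of CELSR3-AS1 and of WNT5A do not overlap between conditions, and those of the other genes shown do.

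The other antisense RNAs with an unadjusted p under 0.05 differed less, or rested on few reads. PGM5-AS1 had a log2 difference of -0.20, with values of 5.14 to 5.77 RPKM in DMSO and 4.17 to 5.17 in GW3965. Its partner PGM5, related to phosphoglucomutase, has near-identical copies in the genome, so the assignment of reads is uncertain. MZF1-AS1 (log2 difference -0.26), KANSL1-AS1 (-0.28), ARHGAP5-AS1 (-0.30) and WASHC5-AS1 (-0.40) were lower with GW3965. PLCXD2-AS1 (0.36), NUP50-AS1 (0.22) and WAC-AS1 (0.20) were higher. Their limma adjusted p-values lay between 0.547 and 0.711, PGM5-AS1 included.

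The ends of the list also held antisense RNAs whose libraries scattered. ALG13-AS1 ran from 1.21 to 5.25 RPKM in DMSO and from 0.435 to 4.07 in GW3965, with 3 to 31 reads (log2 difference -0.72, SE 0.54). PCDH9-AS1 had 1.77 and 1.24 RPKM in DMSO 2 and 3, and 3.36 to 6.40 in all other libraries (log2 difference 0.60, SE 0.40). ETV5-AS1, against a gene of an ETS transcription factor, ran from 0.441 to 1.88 RPKM in GW3965 (log2 difference -0.60, SE 0.29). TONSL-AS1 had a log2 difference of 0.39 (SE 0.30). Leaving out 1 library moved each of them. The log2 difference of ALG13-AS1 was -0.47 without DMSO 3 and -0.32 without GW3965 4, and that of PCDH9-AS1 was 0.40 without DMSO 2 and 0.28 without DMSO 3. That of ETV5-AS1 was -0.37 without GW3965 5, and that of TONSL-AS1 was 0.20 without DMSO 4 or without GW3965 2 and 0.59 without DMSO 5.

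Among antisense RNAs studied in cancer, LOXL1-AS1 is described above and FGD5-AS1 among the highest levels. OIP5-AS1 had means of 11.0 and 11.3 RPKM, PSMA3-AS1 of 11.2 and 11.9, GABPB1-AS1 of 2.07 and 2.09, and MCM3AP-AS1 of 1.06 and 1.05 in DMSO and GW3965. ZEB1-AS1, against the gene of the EMT transcription factor ZEB1, had means of 1.28 and 1.33 RPKM. None of these 5 had a limma unadjusted p under 0.05. Of the 15 antisense RNAs on this list, AFAP1-AS1 (0.744 RPKM), SBF2-AS1 (0.762), SLC16A1-AS1 (0.875), DDX11-AS1 (0.657), EGFR-AS1 (0.413), VIM-AS1 (0.335), TGFB2-AS1 (0.142) and ENTPD1-AS1 (0.0994) were under 1 RPKM.

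None of the 143 tested partners passed the adjusted threshold either (lowest limma adjusted p = 0.378). At an unadjusted p under 0.05 there were 10 (6.99%), as among all tested genes (6.99%). Of these 10, 9 were higher and 1 lower with GW3965, beside 4.64% and 2.36% of all tested genes. The groups did not overlap for 5 partners (3.50%), against 1.84% of all tested genes. The median log2 difference of the partners was 0.0042. The partner IGF2BP2, an RNA-binding protein of messenger RNA stability, had 41.5, 51, 50, 51 and 48.5 RPKM in DMSO and 53.6, 51.8, 57.8, 61.3 and 61.7 in GW3965. The log2 difference was 0.24 (SE 0.07), and the limma adjusted p was 0.413. It was 0.025 with the first principal component as a covariate and from 0.144 to 0.728 in the other fits. IGF2BP2-AS1 had means of 1.48 ± 0.274 and 1.38 ± 0.155 RPKM (SD, n = 5). The partner SIDT1 differed by a log2 difference of 0.16 and THUMPD3 by 0.18, while SIDT1-AS1 differed by -0.08 and THUMPD3-AS1 by -0.07. LRRC75A was lower with GW3965 without overlap, at 2.05 ± 0.0358 and 1.79 ± 0.0641 RPKM (SD, n = 5, log2 difference -0.19, limma unadjusted p = 0.00965, adjusted p = 0.447), and LRRC75A-AS1 differed by 0.07.

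**Figure D3:**
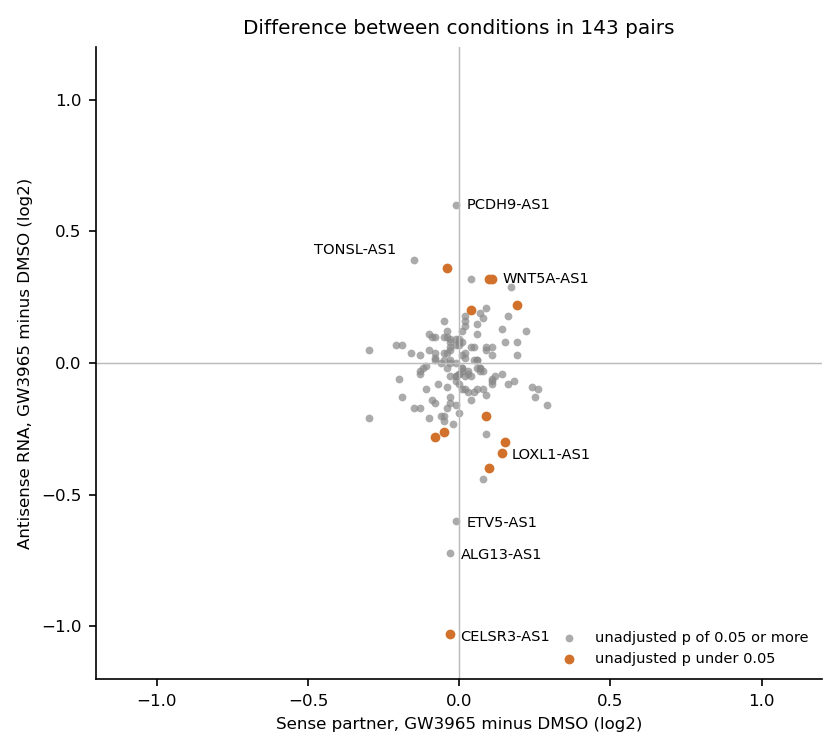
Log2 difference of GW3965 minus DMSO in 143 pairs, with the sense partner on the horizontal and the antisense RNA on the vertical axis. Antisense RNAs with an unadjusted p under 0.05 are orange. Partners lie between -0.30 and 0.29, and the antisense RNAs reach from -1.03 to 0.60.

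The other genes with such suffixes are given beside the shares over all tested genes, 0.157% past the adjusted and 6.99% past the unadjusted threshold, with 9982 of 20402 lower with GW3965. Of 154 antisense RNAs between 0.5 and 1 RPKM, 0 passed the adjusted threshold and 8 the unadjusted one (5.19%), by limma. Of 29 genes named -AS2 or -AS3, 0 and 1 passed, of 8 named -DT (divergent transcripts) 0 and 0, and of 2 named -OT1 0 and 0. Of 29 named -IT (intronic transcripts), 0 and 4 passed (13.8%), with a median log2 difference of -0.13 and 22 lower with GW3965, and the difference of this class from the others was not tested.

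A list of RNA decay and processing factors was also looked at. It holds nuclear factors, and XRN1, DIS3L and DCP2, which act in decay in the cytoplasm. Among its 28 tested genes of the exosome, its nucleases, the adaptors, transcript termination and the cap complex, 0 passed the adjusted threshold (lowest limma adjusted p = 0.595) and 1 the unadjusted one (3.57%, against 6.99% of all tested genes). That gene was EXOSC1 of the exosome core (log2 difference 0.18, limma unadjusted p = 0.0247), whose 9 genes differed by -0.23 to 0.18. The nucleases (5 genes, -0.05 to 0.12), the helicase and adaptors with MTREX and ZFC3H1 (5 genes, 0.01 to 0.07), the termination factors (5 genes, -0.05 to 0.10) and the cap and decapping factors (4 genes, -0.09 to 0.13) had no gene with an unadjusted p under 0.05.

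The second comparison asks whether an antisense RNA and its partner varied together over the 10 libraries. On log2(RPKM + 0.1), the median Pearson r over the 143 pairs was 0.09, with 84 positive and 59 negative and quartiles at -0.19 and 0.40. Over all 20306 pairs of an antisense RNA with the partner of another one, the median was -0.02 and the quartiles -0.33 and 0.29. An r above 0.6 was found in 18 pairs (12.6%), against 6.91% of these other pairs, and an r below -0.6 in 4 (2.80%), against 7.88%. The points of 1 gene share the libraries, their depth and their composition, and these shares carry no test.

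The libraries that stood apart bear on these values. The antisense RNAs had a median correlation of -0.24 with the first component and 63.8% were negative, against 0.11 and 44.4% of all tested genes, and their partners had a median of 0.15. The median r of the pairs was 0.15 after the component was removed and 0.20 over the 7 libraries without those 3. It was 0.08 in deviations from the mean of each condition.

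After adjustment over the 349 pairs of all antisense, divergent, intronic and overlapping transcripts by suffix, 4 of the 143 passed 0.05 for Pearson's r (permutation test, 100000 resamples, two-sided), 3 positive and 1 negative, and the 3 are described here. For Spearman's rho 1 passed. At an unadjusted permutation p under 0.05 there were 17 of the 143 for r and 21 for rho. The family as a whole had 13 of 349 pairs past the adjusted threshold for r and 53 of 349 past the unadjusted one. The counts of the 143 pairs are to be read beside these.

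SSTR5-AS1 and SSTR5 had the highest r, 0.96 (permutation adjusted p = 0.0253, rho 0.85 with adjusted p = 0.112, r = 0.89 without the 2 libraries farthest from the median). SSTR5-AS1 had 14.8, 8.71, 10.3, 15.3 and 14.1 RPKM in DMSO and 16, 16, 15, 14.6 and 9.85 in GW3965. SSTR5 had 8.78, 6.63, 7.47, 9.42 and 8.25 in DMSO and 9.38, 8.78, 9.30, 8.68 and 6.59 in GW3965. Both were low in the same libraries, DMSO 2, DMSO 3 and GW3965 5, and r was 0.96 over the 7 libraries. The fibroblast marker COL3A1 was lowest in the same 3 libraries (1.97, 2.18 and 1.85 RPKM, against 3.05 to 4.77 in the other 7). COL1A1 ran from 0.696 to 1.08 RPKM and PDGFRB from 0.00792 to 0.0606, neither with its 3 lowest values there. The part of these genes in the correlation was not tested. In GENCODE 29 the starts of SSTR5-AS1 and SSTR5 are 50 bases apart on opposite strands and their exons do not overlap. The gene length behind the SSTR5 values was 2705 bases, longer than its span in GENCODE 29 (chr16:1078781-1080142). Whether the genes as counted overlap is therefore not known. The shared promoter window is the first sequence shown above.

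TMEM161B-AS1 and TMEM161B, a gene of a membrane protein, had r = 0.90 (permutation adjusted p = 0.0253, rho 0.87 with adjusted p = 0.11, 0.84 without the 2 farthest, 0.94 over the 7). TMEM161B-AS1 had 2.55, 1.79, 1.62, 0.985 and 2.17 RPKM in DMSO and 2.56, 2.54, 1.43, 1.31 and 1.29 in GW3965. TMEM161B had 4.52, 4.39, 4.02, 3.19 and 4.62 in DMSO and 4.55, 4.34, 3.86, 4.03 and 3.49 in GW3965. DMSO 4 was the lowest library of both. The authors' gene length was 35212 bases, against 4439 in GENCODE 29. DHRS4-AS1 and DHRS4, of a retinol-related reductase, had r = 0.87 (permutation adjusted p = 0.033, rho 0.77 with adjusted p = 0.203), 0.60 without the 2 farthest and 0.94 over the 7. Both varied little, DHRS4-AS1 between 1.74 and 2.24 RPKM and DHRS4 between 5.66 and 7.23. DHRS4 has near-identical neighbours, so the assignment of its reads is uncertain.

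SOCS2-AS1 and SOCS2, a suppressor of cytokine signalling, had r = 0.82 (permutation adjusted p = 0.0739) and were the pair past the threshold for rho (0.95, permutation adjusted p = 0.0349). GW3965 5 had the highest value of both, 2.38 and 9.29 RPKM. TSPEAR-AS1 and TSPEAR had r = 0.85 and rho 0.93 (permutation adjusted p = 0.0558 and 0.0698), and r = 0.67 over the 7 libraries. Of the exon bases of TSPEAR-AS1, 86.4% lie in introns of TSPEAR.

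Among the low values of r, 4 were close to each other and did not pass. BOLA3-AS1 had r = -0.61, NDUFA6-AS1 -0.61, PGM5-AS1 -0.60 and PSMG3-AS1 -0.58 (permutation adjusted p from 0.357 to 0.412). Over the 7 libraries these values were -0.09, -0.33, -0.69 and -0.37. BOLA3, NDUFA6 and PSMG3 code for a mitochondrial iron-sulfur protein, a subunit of respiratory complex I and a proteasome assembly chaperone.

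**Figure D4:**
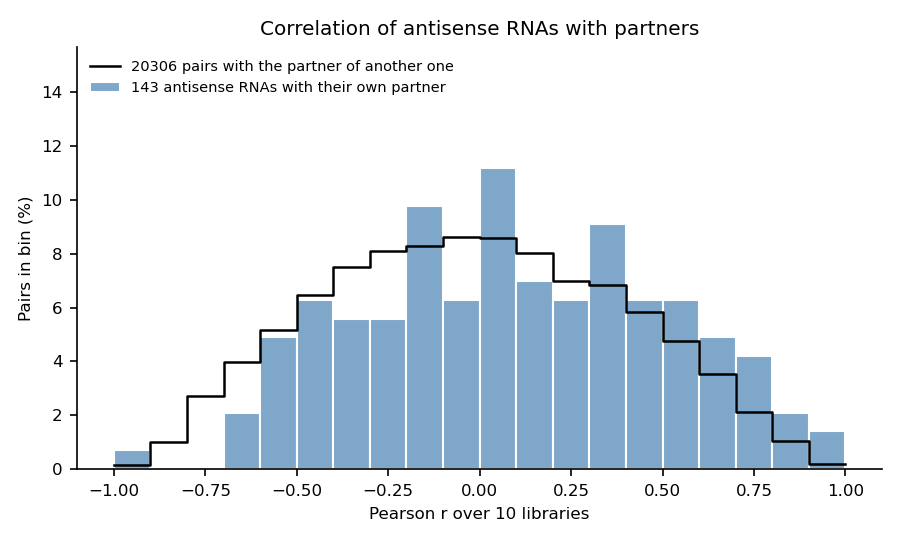
Pearson r over 10 libraries on the horizontal axis and the percent of pairs in each bin of width 0.1 on the vertical axis. Bars show the 143 antisense RNAs with their own partner and the line the 20306 pairs with the partner of another antisense RNA. The bars lie above the line in each bin over 0.3, and 12.6% of the pairs are above 0.6, against 6.91%.

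The pairs were also set out by arrangement. The median r was 0.07 in 65 pairs with starts within 1000 bases and 0.10 in 77 with starts farther apart, and 0.01 and 0.22 after the first component was removed. By the share of exon bases in introns of the partner, the median r was 0.15 in 49 pairs with none, 0.05 in 41 with up to 25%, 0.20 in 10 with up to 50% and 0.07 in 43 above that. After the first component was removed the same medians were 0.01, 0.22, 0.21 and 0.20. These values are descriptions, with no test.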

How the data were processed

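RNA of PC3 cells was sequenced in 10 libraries, 5 per condition, grouped by their titles. The authors aligned single reads of 50 bases, counted them per gene and deposited RPKM values, scaled by library. The submitters' notes name hg38, HISAT2 2.1.0, HTSeq 0.11.2 and DESeq2 1.22.2, while the methods name a mouse genome. All identifiers in the table are human. The strand setting and annotation release are not given in the sources used here. Whole reads were recovered for 100% of values (tolerance 1e-06), and the library factors were median-of-ratios size factors. Intervals were not computed, and the reads carry no molecular identifiers.

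In R 4.3.3, log2(RPKM + 0.1) of the 20402 genes whose mean reached 0.5 RPKM was fitted by limma 3.58.1 (lmFit, trended eBayes), with two-sided p-values adjusted by Benjamini-Hochberg at 0.05. Fold changes on this scale understate those of low genes. Correlations and their permutation tests were computed with NumPy 2.4.6, with ranks from SciPy 1.17.1. Replicate numbers were not used to pair libraries. Deviations of same-numbered libraries correlated by 0.415, -0.198, 0.00692, 0.497 and -0.291 over 4348 genes for numbers 1 to 5. The highest correlations with a library of another number were 0.614, 0.435, 0.37, 0.351 and 0.251. Only for number 4 was the same-numbered value the higher one, and these values cannot settle whether libraries were paired.

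The antisense RNAs and lists were chosen with earlier results of these data known. Named were those with an unadjusted p under 0.05, the 8 highest levels, the 3 highest and 3 lowest differences, the 5 highest and 5 lowest r, those next to the limit and a fixed list of 15. Items withheld for evaluation are not reported here. Other genes, among them DLGAP1-AS1, EPB41L4A-AS1, TP73-AS1, PXN-AS1, TPT1-AS1, FOXD2-AS1 and the pairs of IGF2BP2, SIDT1, THUMPD3 and LRRC75A, were named after their values were seen. Positions are from GENCODE 29 (GRCh38). Alternatives were other pseudocounts (1 and 0.01), filters, scalings and weights, voom on recovered reads, the replicate block, the first principal component and the loss of libraries.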

Additional observations from a re-analysis of the deposited data

Results flagged for a closer look

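In 3 of 70 groups of 5 libraries, for the 35 antisense RNAs named, a single library was set off by more than 0.71 of the range of its group. Chance gives about 1 such group in 20. FGD5-AS1 had 28.0 RPKM in DMSO 4 and 23.9 to 24.6 in the other DMSO libraries (gap 0.805 of the range). SMARCA5-AS1 had 3.59 RPKM in DMSO 5 and 2.72 to 2.87 in the others (gap 0.814). SSTR5-AS1 had 9.85 RPKM in GW3965 5 and 14.6 to 16 in the other GW3965 libraries (gap 0.806), and SSTR5 was lowest of the GW3965 libraries there too, at 6.59 RPKM.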

How the results depend on the processing

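In all 22 alternatives, 0 antisense RNAs passed the adjusted threshold of limma, and the 16 differences looked at kept their direction. The count at an unadjusted p under 0.05 ran from 6 to 13 when 1 library was left out and from 8 to 17 otherwise. It was 7 without DMSO 3 or DMSO 5 and 6 without GW3965 3. For the partners it ran from 6 to 17 when 1 library was left out, 17 without DMSO 1, and 6 without DMSO 3, DMSO 5, GW3965 1 or GW3965 5. With the first principal component as a covariate 1 partner, IGF2BP2, passed the adjusted threshold and 17 the unadjusted one. The pairs past the adjusted threshold for r, 4 over 10 libraries, numbered from 0 to 5 when 1 library was left out (0 without DMSO 3, DMSO 4 or GW3965 1, 1 without DMSO 5 and 2 without DMSO 1 or GW3965 2), and 0 without DMSO 1, GW3965 1 and GW3965 2 together, where the median r was 0.20. With 9 or 7 libraries the smallest p-values rise by construction. The difference of GW3965 minus DMSO in the log2 ratio of CELSR3-AS1 to CELSR3 lay between -1.11 and -0.60 in the 12 alternatives tried for it.

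With the replicate number as a block, 0 antisense RNAs and 0 partners passed the adjusted threshold of limma, and 10 of each the unadjusted one. Deviations from the mean of each replicate number gave 12 pairs past the adjusted threshold for r and 46 past the unadjusted one. The 2 deviations of a number mirror each other, so these p-values are too small, and no pairing is claimed. Low reads limit CELSR3-AS1 and ALG13-AS1, with as few as 3 in a library.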
